A study of Gallus gallus with 24 samples.

Results

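The comparison described here is that of retinal pigment epithelium (RPE) isolated from chick embryos on embryonic day 14 (E14) with RPE isolated on embryonic day 7 (E7), when both cultures were kept with the apical and the basal stimulus together. The members were chosen by their labels: the 3 E14 arrays and the 3 E7 arrays whose medium code names conditioned medium and serum, 6 of the 24 arrays of the series. The E14 group is E14 RPE in rcSF3 with serum and the E7 group is E7 RPE in rcSF3 with serum. SF3 is a serum-free medium, rcSF3 is SF3 conditioned by neural retinas of E14 embryos and given on the apical side, and serum was given on the basal side. Both groups therefore had medium from retinas of the same age, and the groups were set apart by the age of the RPE at isolation. The code on these labels (CM-SER-SER) names serum 2 times and SF3 not at all, and its reading as the combined medium is an inference. The other 18 arrays hold both ages in each of the other media (SF3 alone, SF3 with serum, rcSF3 alone), 3 arrays a group. By the methods, the basal medium of all cultures was SF2, which is SF3 with bovine pituitary extract added. A medium or stimulus called alone therefore lacked serum, rcSF3 or both, but not this extract.

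The RPE is a pigmented monolayer between the photoreceptors and the choroid. It regenerates retinal for the photoreceptors, engulfs the tips of their outer segments and digests them in lysosomes, makes melanin, and carries glucose, lactate and ions between the blood and the retina. Its tight junctions, built of claudins and their adaptors, close the paths between the cells. On E7 the chick RPE has few tight junctional strands and the photoreceptors have no outer segments, and by E14 the strands are forming a network.

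These were primary cultures on filters, and the methods state that the RPE of several filters, plated on 1 day, was pooled for a biologic repeat. Nothing in the sources says that E7 and E14 cultures were plated or hybridized together, so embryonic age and any such batch cannot be told apart. The label is given as biotin-UTP for the E7 arrays and biotin-U for the E14 arrays compared here, so a difference in labelling, if there was one, cannot be told apart from age either. The array reads mRNA with 1 or more probe sets per gene in arbitrary intensity units, and 3 arrays a group limits the precision. Signals of different probe sets cannot be set against each other. Within the 2 groups the arrays correlated with r between 0.976 and 0.984 over log2 signals, and across the 2 ages with r between 0.948 and 0.960. The median signal of all probe sets was 102.5, 121.4 and 114.0 on the E14 arrays and 95.1, 101.8 and 96.8 on the E7 arrays, although the trimmed mean was the same on all. The 3′ over 5′ ratio of actin was between 0.28 and 0.38 at E14 and between 0.19 and 0.38 at E7, in log2 units. That of GAPDH was -0.06 to -0.00 at E14 and 0.02 to 0.11 at E7, which do not overlap, and its part in the results was not tested. Defining markers of RPE were far above the filter level of 100 at both ages. RPE65, the isomerase of the visual cycle, gave signals of 20768 to 26903 at E14 and 18858 to 22452 at E7, and the RPE transcription factor OTX2 gave 24355 to 26120.3 and 23832 to 26028.

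Of 19519 probe sets tested, 3670 (18.8%) differed between the ages with both stimuli: 1713 (8.78%) were higher at E14 and 1957 (10%) were lower. A probe set was tested when its mean signal reached 100 over the 12 arrays of either age, and it counted as different when its adjusted p was under 0.05 (limma, 8 groups and 24 arrays in 1 model, method of Benjamini and Hochberg). Differences are in log2 units, E14 minus E7, with their standard error (SE), and n is 3 arrays a group throughout. A difference of 2-fold or more was seen for 623 of the 3670, of which 407 were higher and 216 lower. The 3 arrays of one age all lay above the 3 of the other for 37.8% of the probe sets tested. Members of the lists below were mostly named for the lowest p of this comparison, which favours arrays that do not overlap. Such separation, where it is given below, describes the members named and not their lists. Counting 1 probe set for each of the 9226 named genes tested, 2090 genes (22.7%) differed, 932 (10.1%) higher and 1158 (12.6%) lower, with a median difference of -0.03 over all of them. Counts of list members given below are to be read beside these shares. The split depends on the scaling of the arrays. When each array was set to the same median, 799 probe sets were higher and 5080 lower. This scaling moves the median difference of all probe sets from -0.01 to -0.21. Of those with 2-fold or more, 253 were then higher and 417 lower. Of the named genes 4.65% were higher and 31.7% lower with this scaling, with a median of -0.23. List counts given below with arrays set to the same median are to be read beside these latter shares. Many lists hold members that reached the filter level at 1 age only, the age with the higher mean over its 12 arrays. Among them are 4 of 36 interstitial matrix genes, 4 of 32 cytokines and receptors and 3 of 31 amino acid transporters. So are 3 of 19 basement membrane components and 3 of 14 neuron markers.

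**Figure D1:**
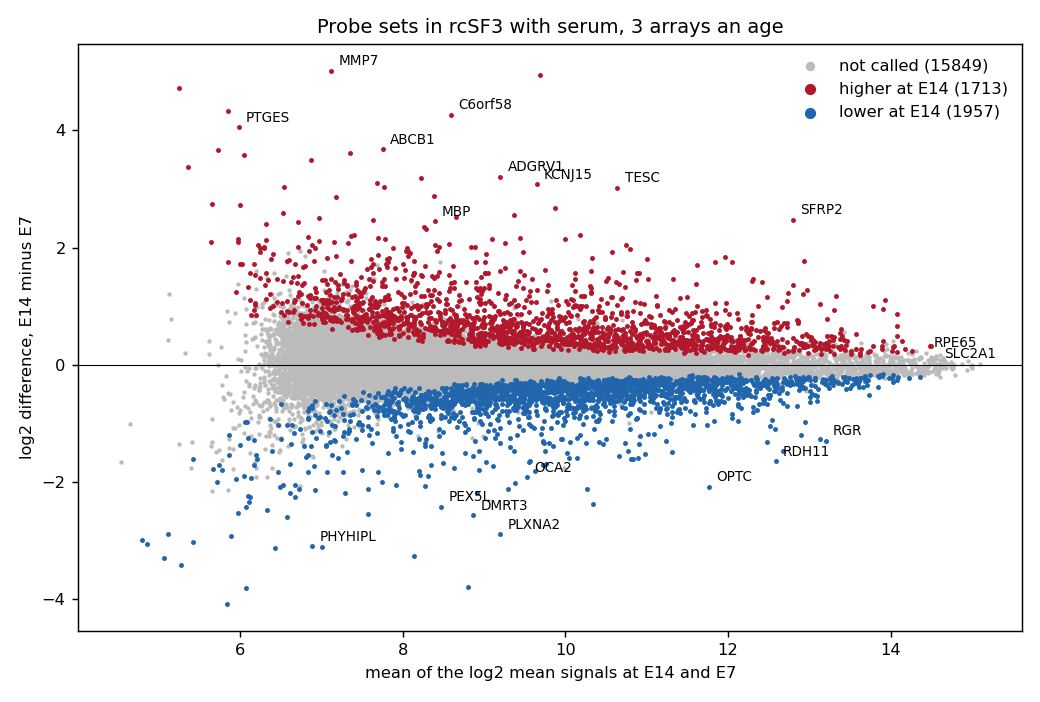
Each point is a probe set tested in rcSF3 with serum, with the mean of the log2 mean signals of both ages on the horizontal axis and the log2 difference, E14 minus E7, on the vertical axis. Red and blue points are the 1713 higher and the 1957 lower ones, and the largest increases (MMP7, 5.02) reach further from 0 than most decreases among the named genes.

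The largest increases were of genes of several kinds, enzymes and receptors among them. MMP7 (matrilysin, a protease of the extracellular matrix) gave signals of 797, 508 and 569 on the E14 arrays and 43.9, 45.9 and 3.37 on the E7 arrays, a difference of 5.02 ± 0.81 (SE; adjusted p = 0.00011). Its E7 signals all lay under 100, and with signals under 100 raised to 100 the difference was 2.62. C6orf58 gave 1309, 1674 and 1991 against 133, 58.2 and 77.7, a difference of 4.27 ± 0.24 (adjusted p = 5.7e-11, and 3.89 with low signals raised to 100). PTGES, a synthase of prostaglandin E, gave 177, 305 and 282 against 9.63, 16.5 and 20.8 (4.06 ± 0.85, adjusted p = 0.0016, and 1.31 with low signals raised to 100). All 3 genes were above the filter level on each E14 array, PTGES by the least, and near or under it on the E7 arrays. ABCB1, the efflux pump P-glycoprotein, gave 785, 876 and 663 against 60.6, 64.2 and 56.0 (3.68 ± 0.45, adjusted p = 4.5e-06, and 2.94 with low signals raised to 100), and a further probe set of the gene gave 3.61.

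Several of the leading increases were well measured at both ages. ADGRV1, an adhesion receptor of the G protein-coupled type, gave 1997, 1498 and 1863 at E14 and 201, 158 and 222 at E7 (3.21 ± 0.23, adjusted p = 1.5e-09). KCNJ15, an inward rectifier potassium channel, gave 2179, 2648 and 2164 against 305, 273 and 247 (3.08 ± 0.24, adjusted p = 4.4e-09). TESC, the calcium-binding protein tescalcin, gave 3152, 5759.9 and 4912 against 586, 489 and 583 (3.02 ± 0.19, adjusted p = 2.3e-10). For these 3 genes the lowest E14 array lay above the highest E7 array by several fold, though arrays that do not overlap were a condition of this ranking. The others of the 12 largest increases were CCDC3 (3.19), C10H15ORF48 (3.10), EPHX3, an epoxide hydrolase (3.04), TLR2A, a Toll-like receptor (3.04), and CCK, the peptide cholecystokinin (2.86). With signals under 100 raised to 100 these 5 differences lay between 1.39 for TLR2A and 2.91 for CCDC3. A further probe set of CCK gave 0.38 (adjusted p = 0.46), and chicken has a near copy of TLR2A whose part in the signal was not tested.

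The largest decreases were of genes of several kinds, and most were dim at E14. PLXNA2, a receptor for semaphorins that guide axons, gave 192, 170.0 and 293 at E14 and 1372, 1558 and 1807 at E7, a difference of -2.89 ± 0.21 (adjusted p = 1.5e-09), and its further probe sets were lower as well. DMRT3, a transcription factor, gave 258, 175 and 146 against 1176, 829 and 1384 (-2.56 ± 0.23, adjusted p = 3.7e-08). PEX5L gave 168, 125 and 169.5 against 756, 866 and 839.6 (-2.42 ± 0.19, adjusted p = 4.4e-09). COL24A1, a fibrillar collagen, gave 264, 191 and 219 against 744, 1049.7 and 1310.3 (-2.18 ± 0.32, adjusted p = 3.6e-05). These 4 genes were above the filter level of 100 on all 6 arrays. Arrays that do not overlap between the ages were a condition of this ranking. PHYHIPL gave 28.1, 33.0 and 63.9 against 369, 279 and 359 (-3.09 ± 0.66, adjusted p = 0.0019, and -1.74 with low signals raised to 100).

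The other 7 of the 12 largest decreases had E14 signals mostly under 100. They were LRFN2 (-2.99), PHRF1 (-2.92), TINAGL1 (-2.55), KBTBD11 (-2.52), COCH, the matrix protein cochlin (-2.42), SIX6, a transcription factor of the eye field (-2.26), and MOB3C (-2.18). With signals under 100 raised to 100 the differences of PHRF1, COCH, SIX6 and MOB3C shrank to -0.61, -0.54, -0.52 and -0.72 and no longer passed the test. LRFN2 lay under 100 on all 6 arrays, so its difference has no firm size. TINAGL1 gave 19.4, 124 and 125 at E14 and 416, 282 and 513 at E7, and without E14 replicate 1 its difference was -1.66 (adjusted p = 0.085). KBTBD11 also lost its call without E14 replicate 1 (-2.0, adjusted p = 0.07) and shrank from -2.52 to -0.46 with low signals raised to 100, and MOB3C lost its call without E14 replicate 3 (-1.65, adjusted p = 0.073).

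**Figure D2:**
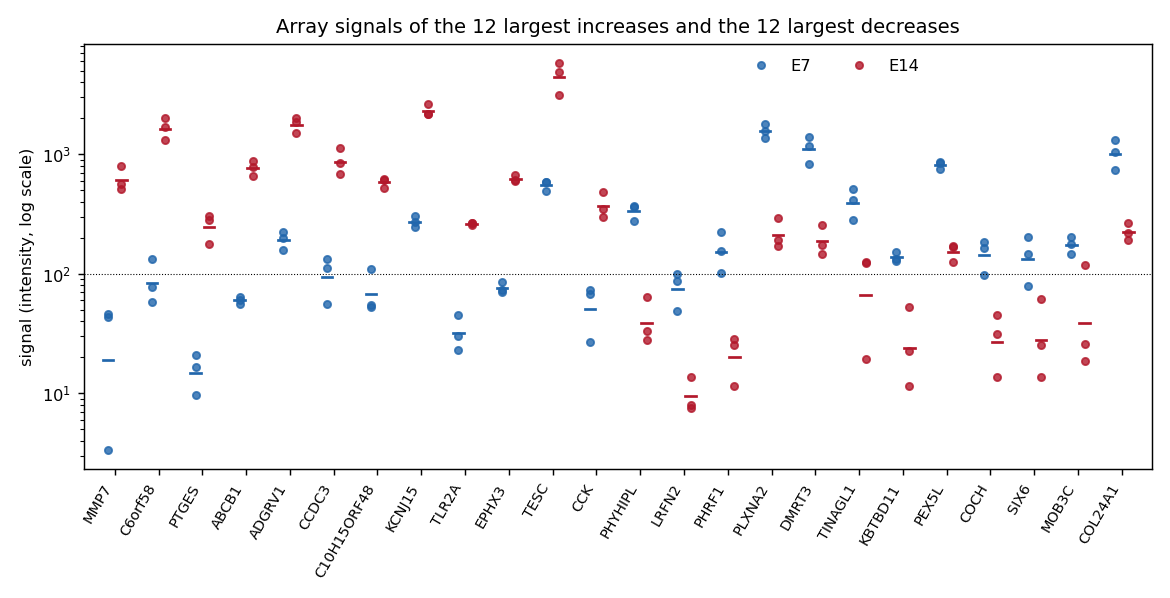
Signals of the 12 largest increases (left) and the 12 largest decreases (right) on the 6 arrays in rcSF3 with serum, on a log scale. Points are arrays, bars the means of log2 signals of 3 arrays, and the dotted line is the filter level of 100; ADGRV1, KCNJ15 and TESC lie above it at both ages, and so do PLXNA2, DMRT3, PEX5L and COL24A1.

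The visual cycle turns all-trans retinal from the photoreceptors back into 11-cis retinal. Of 16 genes of retinol handling tested, 2 (12.5%) were higher at E14, 4 (25.0%) were lower and 10 did not pass the test, with a median of -0.11 (1 higher and 7 lower with arrays set to the same median). The lower ones were 2 without E7 replicate 2 or E14 replicate 2. In these fits, and without replicate 3 of either age, 1 was higher. RDH11, a retinol dehydrogenase, gave 3133, 3133 and 4253 at E14 and 10169.5, 10758 and 11523 at E7 (-1.64 ± 0.14, adjusted p = 2.2e-08). RGR, an opsin of the RPE, gave 5233, 6054 and 6872 against 15185, 13894 and 14953 (-1.29 ± 0.17, adjusted p = 1.2e-05). Both were lower on every E14 array, by more than 2-fold. ALDH1A2, which makes retinoic acid, gave 269, 388 and 448 against 119, 133 and 138 (1.47 ± 0.21, adjusted p = 2.1e-05). ALDH1A3, a further enzyme of that step, had overlapping groups (812, 408 and 773 against 673, 1254 and 1844) and a difference of -0.87 (adjusted p = 0.03). Its call was lost without E7 replicate 2 (-0.81, adjusted p = 0.092), without E7 replicate 3 (-0.53, adjusted p = 0.2) or without E14 replicate 2 (-0.55, adjusted p = 0.21). RPE65 did not pass the test (0.21 ± 0.11, adjusted p = 0.19) and its groups overlapped. LRAT, the acyltransferase of the cycle, gave 729, 758 and 606 against 485, 444 and 364, which do not overlap, but its difference of 0.70 ± 0.25 missed the threshold (adjusted p = 0.056). It passed with the filter at 200 (adjusted p = 0.048), quantile normalization (adjusted p = 0.042) or only the arrays compared (adjusted p = 0.0075).

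Genes of melanin and melanosomes changed in both directions. Of 20 tested, 6 were higher and 4 lower at E14, with a median of 0.09 (-0.11, and 3 higher and 8 lower, with arrays set to the same median), and 2 were lower without E7 replicate 1, E7 replicate 3 or E14 replicate 1. MLANA, a melanosome protein, gave 2569.7, 3619 and 3108 at E14 and 1053, 986 and 1372 at E7 (1.45 ± 0.17, adjusted p = 2.8e-06). GPNMB, a glycoprotein of melanosomes and lysosomes, gave 10338, 13339 and 10795 against 4883, 4532 and 3863 (1.37 ± 0.19, adjusted p = 1.7e-05). OCA2, a melanosome membrane transporter, went the other way, with 349.6, 387 and 406 against 1437, 1468 and 1421 (-1.92 ± 0.20, adjusted p = 4.3e-07), and its further probe sets gave -2.02 and -1.80. DTNBP1, which acts in melanosome formation, was higher by 0.63 ± 0.12 (adjusted p = 0.00053). RAB38, a GTPase of melanosome transport, had a difference of 0.16 (adjusted p = 0.66).

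Of 16 transcription factors of the eye field and the RPE tested, 1 was higher and 3 were lower, with a median of -0.25 (-0.45, and 0 higher and 7 lower, with arrays set to the same median). Of the 16, 3 reached the filter level at 1 age only. PAX6 gave 651, 512 and 442 at E14 and 965, 1384 and 1679.9 at E7 (-1.31 ± 0.18, adjusted p = 2.3e-05), and LHX2 gave 394, 325 and 378 against 498, 559 and 542 (-0.55 ± 0.11, adjusted p = 0.0014). Neither overlapped between the ages, which their choice by the lowest p favours. SIX6, the third of the lower ones, is the dim gene named above. NR2E1 was higher by 0.31 (adjusted p = 0.014), but not without E7 replicate 2 (0.28, adjusted p = 0.067), without E14 replicate 1 (0.25, adjusted p = 0.079) or with arrays set to the same median (0.11, adjusted p = 0.49). OTX2 and MITF, which set the RPE fate, had differences of 0.01 and -0.05 (adjusted p = 0.91 and 0.85).

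In the uptake of outer segments, receptors on the RPE bind them through bridging proteins in the subretinal space. Of 19 genes tested, 3 were higher and 1 was lower, with a median of 0.09 (-0.11 with arrays set to the same median). PROS1, the bridging protein S, gave 2734, 2279.6 and 2278 at E14 and 1304, 1057 and 976 at E7 (1.13 ± 0.15, adjusted p = 1.2e-05). MERTK, the kinase receptor that it engages, gave 606, 537 and 564 against 1007, 1003 and 966 (-0.80 ± 0.10, adjusted p = 9.5e-06). The ligand was thus higher and the receptor lower on every E14 array. ANXA5 was higher by 0.45 ± 0.06 (adjusted p = 2.8e-05). The kinase SRC was higher by 0.56 (adjusted p = 0.0061), though without E14 replicate 3 it was 0.43 (adjusted p = 0.053).

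Of 7 claudins tested, 2 (28.6%) were higher at E14, beside 10.1% of all named genes. None was lower (1 higher and 1 lower with arrays set to the same median). CLDN1 gave 5989, 5164 and 3964 at E14 and 1700.3, 2223 and 1841 at E7 (1.38 ± 0.27, adjusted p = 0.00082). CLDN5 gave 2474, 3087 and 2781 against 1991, 1673 and 2035 (0.55 ± 0.14, adjusted p = 0.0063), and a further probe set gave 1.11 (adjusted p = 0.00076). Both were higher on all E14 arrays, but with arrays set to the same median the CLDN5 difference was 0.35 (adjusted p = 0.051). CLDN2, CLDN12 and CLDN20 had differences of -0.19, 0.16 and 0.47, with overlapping arrays (adjusted p = 0.28, 0.67 and 0.3), and with arrays set to the same median CLDN2 passed as lower (-0.39, adjusted p = 0.042).

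Of 30 adaptors and polarity proteins of the tight junction tested, 3 (10%) were higher and 7 (23.3%) lower, beside 10.1% and 12.6% of all named genes, with a median of -0.10 (1 higher and 12 lower with arrays set to the same median), and the lower ones were 3 without E14 replicate 2 and 4 without E7 replicate 1 or 3. LLGL2, a polarity protein of the basolateral membrane, gave 2722, 2897 and 2947 at E14 and 4286, 4299 and 4490.0 at E7 (-0.61 ± 0.08, adjusted p = 9.8e-06). PARD3, a scaffold of apical polarity, gave 2708, 2990.2 and 2565 against 3579, 3429 and 3880.2 (-0.40 ± 0.08, adjusted p = 0.00075). PATJ, a scaffold of the same apical domain, gave 756, 977 and 880.0 against 519, 484 and 502 (0.79 ± 0.12, adjusted p = 8.2e-05). None of these 3 overlapped, which their choice by the lowest p favours. TJP3 (ZO-3) gave 712, 529.9 and 639 against 946, 940.1 and 859.5 (-0.55 ± 0.16, adjusted p = 0.014), and without E14 replicate 2 it was -0.44 (adjusted p = 0.092). MARVELD3 was higher by 0.46 (adjusted p = 0.0044), and 0.26 (adjusted p = 0.11) with arrays set to the same median. TJP1 (ZO-1) had a difference of -0.21 ± 0.12 (adjusted p = 0.24), which passed as lower with arrays set to the same median (-0.41, adjusted p = 0.014), and CRB2 one of -0.10 ± 0.21 (adjusted p = 0.78).

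Of 13 cadherins and catenins tested, 1 was higher and 1 lower, with a median of -0.11 (1 and 7 with arrays set to the same median). CTNNA2, an alpha-catenin, gave 2549, 2818 and 3022 at E14 and 1281, 1346 and 1404 at E7 (1.05 ± 0.18, adjusted p = 0.0002). CDH13, a cadherin without a cytoplasmic tail, gave 3792, 3347 and 5185 against 9222, 7903 and 7997 (-1.05 ± 0.25, adjusted p = 0.0044). Neither overlapped between the ages, which their choice by the lowest p favours. NECTIN3 and CTNND1 had differences of -0.50 and -0.27 that missed the threshold (adjusted p = 0.054 and 0.13), and CDH4 and CDH11 had -0.17 and 0.17. With arrays set to the same median NECTIN3 (-0.70, adjusted p = 0.0094), CTNND1 (-0.47, adjusted p = 0.015) and CDH4 (-0.37, adjusted p = 0.0078) passed as lower.

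Among 45 regulators of actin filaments and microvilli tested, 5 (11.1%) were higher and 4 (8.89%) lower, near the 10.1% and 12.6% of all named genes. The median was 0.04 (-0.16, and 0 higher and 11 lower, with arrays set to the same median). The higher ones were 2 without E7 replicate 2 or E14 replicate 3 and 3 without E7 replicate 3. Of the members named, the largest differences were of VIL1 and ESPN, bundling proteins of the microvillus core. VIL1, villin, gave 944, 1153 and 983 at E14 and 3397, 3217 and 2797 at E7 (-1.61 ± 0.15, adjusted p = 1.1e-07). ESPN, espin, gave 4669, 4981 and 7367 against 10436, 11474 and 11093 (-0.98 ± 0.17, adjusted p = 0.00027). Every E14 array was lower than every E7 array for both. PLS3, plastin, had a difference of -0.38 ± 0.28 (adjusted p = 0.38). ACTR3, a subunit of the Arp2/3 complex that branches actin, gave 4283, 5064 and 5182 against 3789.7, 3419 and 3730.4 (0.41 ± 0.08, adjusted p = 0.00099), and DIAPH2, a formin, was higher by 0.39 (adjusted p = 0.0041). With arrays set to the same median these were 0.21 (adjusted p = 0.076) and 0.19 (adjusted p = 0.24). The formin FMN1 had a difference of 0.07 (adjusted p = 0.74), and other genes of adhesion and its signals, ARHGEF16, ITGB1BP1, YES1 and PRKCD, had -0.47, -0.30, 0.08 and 0.28, none of which passed the test. A further probe set of ITGB1BP1 gave -0.87 (adjusted p = 0.00092), and the first passed with arrays set to the same median (-0.50, adjusted p = 0.016).

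Of 8 potassium channels tested, of 35 in the list, 4 were higher at E14 and none lower, and 2 of the 8 reached the filter level at 1 age only (3 higher and 2 lower with arrays set to the same median). Besides KCNJ15, KCNJ2, a further inward rectifier, gave 741, 696 and 642 at E14 and 134, 166 and 110.1 at E7 (2.36 ± 0.19, adjusted p = 1.2e-08). KCNQ1, a voltage-gated channel, gave 1079.6, 1310.2 and 1143 against 844, 722 and 744 (0.61 ± 0.18, adjusted p = 0.017). Its call was lost without E7 replicate 2 (0.57, adjusted p = 0.065), E7 replicate 3 (0.59, adjusted p = 0.055) or E14 replicate 2 (0.53, adjusted p = 0.082), and with arrays set to the same median (0.41, adjusted p = 0.081). KCNK2, a background channel, was dim at both ages (80.4, 84.8 and 119 against 50.9, 63.0 and 43.3), and its difference of 0.85 was 0.08 with low signals raised to 100.

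Of 18 genes of chloride and bicarbonate transport and the sodium pump tested, 3 were higher and 3 lower, with a median of 0.09 (-0.11, and 1 higher and 6 lower, with arrays set to the same median), and 1 was lower without E7 replicate 1. The membrane-bound carbonic anhydrases CA14 and CA12 changed in opposite directions. CA14 gave 862, 1275 and 1154 at E14 and 3356, 3555 and 2916 at E7 (-1.59 ± 0.21, adjusted p = 1.1e-05). In the other media the age difference of CA14 was 0.51 in SF3, 0.02 in rcSF3 and -1.54 in SF3 with serum. CA12 gave 859.8, 676 and 748 against 358, 301 and 326 (1.21 ± 0.27, adjusted p = 0.0024). ATP1B3, a subunit of the sodium pump, was higher by 0.31 (adjusted p = 0.0022), but 0.11 (adjusted p = 0.28) with arrays set to the same median, and a further probe set gave -0.01. SLC4A7, a sodium bicarbonate cotransporter, was lower by a difference of -0.33 (adjusted p = 0.0087), and without E7 replicate 1 it was -0.27 (adjusted p = 0.058). BEST1, bestrophin, gave 5826, 6736 and 5878 against 5507, 5060.1 and 4216, and its difference of 0.32 ± 0.11 was at the edge of the threshold (adjusted p = 0.042). The BEST1 call was lost without E7 replicate 2 (0.35, adjusted p = 0.07), E7 replicate 3 (0.22, adjusted p = 0.22), E14 replicate 2 (0.26, adjusted p = 0.18) or E14 replicate 3 (0.36, adjusted p = 0.06), and with arrays set to the same median (0.12, adjusted p = 0.45).

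Of 10 genes of the glucose transporter list tested, 4 were higher at E14, 6 did not pass the test and none was lower, with a median of 0.38 against -0.03 over all named genes. SLC5A1, the sodium-coupled glucose transporter, gave 1559.6, 1268 and 1012 at E14 and 435, 537 and 414 at E7 (1.46 ± 0.26, adjusted p = 0.0004). SLC2A14 gave 3374, 3227 and 2952 against 1505, 1539.8 and 1663 (1.02 ± 0.13, adjusted p = 9.2e-06). SLC2A11 gave 4221, 4992 and 4529 against 2605, 2448 and 2650.4 (0.83 ± 0.15, adjusted p = 0.00031). SLC2A13, a myo-inositol carrier of the same family, was higher by 0.68 ± 0.13 (adjusted p = 0.00075). SLC2A1, the main glucose carrier of the blood-retinal barrier, gave 22934, 24271 and 26104 against 25039.5, 23453 and 23623, which overlap (0.02 ± 0.06, adjusted p = 0.84). SLC2A8, SLC2A9 and SLC2A12 had differences of 0.04, 0.53 and 0.11 and did not pass the test. With arrays set to the same median SLC2A1, SLC2A8 and SLC2A12 had -0.18, -0.16 and -0.09.

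The monocarboxylate transporters, which carry lactate, had 1 of 7 higher and 1 lower (0 and 5 with arrays set to the same median). SLC16A1, SLC16A3 and SLC16A8 had differences of -0.10, -0.16 and -0.13 (adjusted p = 0.34, 0.36 and 0.29). SLC16A12, a creatine transporter, was the lower one (-0.21 ± 0.07, adjusted p = 0.037), and leaving out any array except E7 replicate 3 took its adjusted p to between 0.061 and 0.17. Of 31 amino acid and neurotransmitter transporters tested, 9 were higher and none lower, with a median of 0.19 that was -0.01 (6 higher and 3 lower) with arrays set to the same median. SLC6A15 gave 1759, 1403 and 1635 at E14 and 653, 713 and 866 at E7 (1.11 ± 0.10, adjusted p = 1.1e-07), and SLC6A20, a carrier of proline, gave 3967, 4638 and 3528 against 2169, 1923 and 1427 (1.15 ± 0.15, adjusted p = 9.5e-06). SLC7A6 was higher by 0.49 ± 0.06 (adjusted p = 1.2e-05) and SLC7A14 by 2.21 ± 0.35 (adjusted p = 8.1e-05, and 1.61 with low signals raised to 100).

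**Figure D3:**
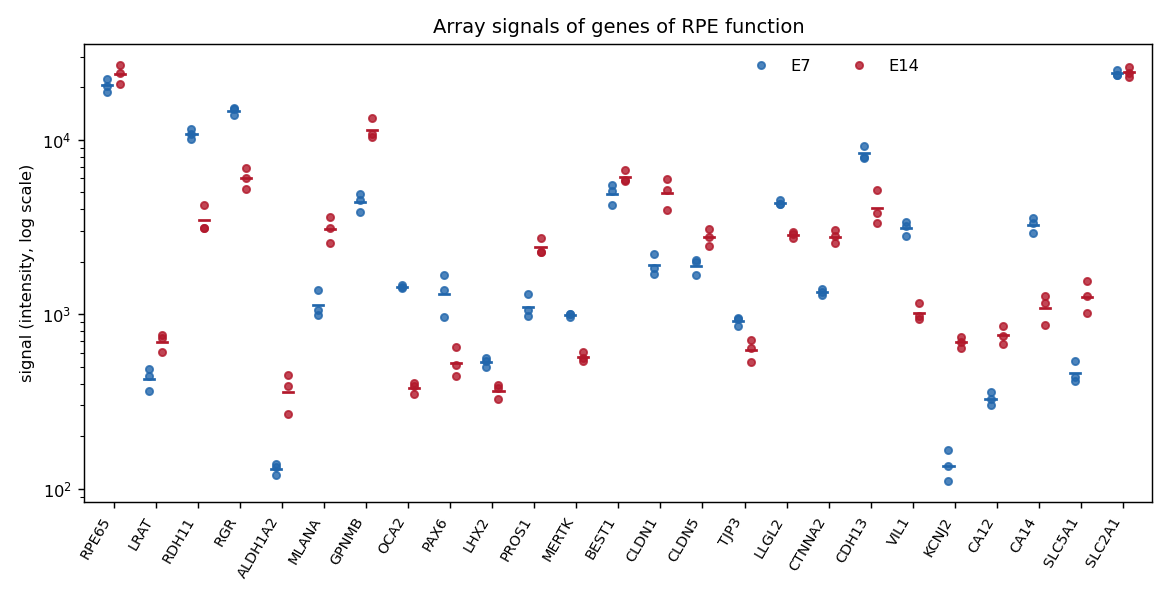
Signals of 25 genes of RPE function on the 6 arrays in rcSF3 with serum, on a log scale; points are arrays and bars the means of log2 signals of 3 arrays. RDH11, RGR, OCA2, VIL1 and CA14 lie lower at E14, MLANA, PROS1, CLDN1, KCNJ2 and SLC5A1 higher, and RPE65 and SLC2A1 overlap.

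Of 56 genes of the lysosome and its proton pump tested, 21 (37.5%) were higher at E14, beside 10.1% of all named genes. The other 35 did not pass the test and none was lower. The median of the list was 0.17. With arrays set to the same median 14 were higher, 8 were lower and the median was -0.03. Of all named genes 4.65% were higher and 31.7% lower with that scaling, with a median of -0.23. LAPTM4B, a lysosomal membrane protein, gave 547, 502 and 521 at E14 and 160.5, 143 and 99.9 at E7 (1.99 ± 0.17, adjusted p = 2.0e-08). NPC2, which passes cholesterol out of lysosomes, gave 12345, 13278 and 14383 against 8651, 8527 and 8734 (0.62 ± 0.06, adjusted p = 4.0e-08). CTSK, the protease cathepsin K, gave 9239.9, 10421 and 9904 against 4038, 4553 and 5411 (1.09 ± 0.11, adjusted p = 3.8e-07), and the sulfatase ARSB gave 1323, 1336 and 1447 against 592, 653 and 787 (1.02 ± 0.11, adjusted p = 1.1e-06). None of the 4 overlapped between the ages, which their choice by the lowest p favours. When any 1 of the 6 arrays was left out, 17 to 22 members were higher and none lower. ATP6V1C2, a subunit of the proton pump, had a difference of -0.09 (adjusted p = 0.42), while a further probe set of it gave 1.23 (adjusted p = 0.00032).

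Of 22 genes of cholesterol synthesis and uptake tested, 11 were higher and 1 was lower, with a median of 0.41 (0.21, and 5 higher and 2 lower, with arrays set to the same median). SQLE, squalene epoxidase, gave 4415, 5058 and 3969 at E14 and 3047, 2209 and 1936 at E7 (0.92 ± 0.16, adjusted p = 0.00029). NSDHL, a dehydrogenase of the same pathway, gave 1207, 1355 and 1156 against 852, 625 and 555 (0.89 ± 0.14, adjusted p = 5.7e-05), and LSS, lanosterol synthase, was higher by 0.52 ± 0.11 (adjusted p = 0.0019). All 3 were higher on every E14 array. The list had 8 to 12 higher members when 1 array was left out. The median of the list was -0.02 in SF3, 0.56 with serum alone and 0.11 with rcSF3 alone.

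Of 43 chaperones tested, 1 was higher at E14, 15 (34.9%) were lower, beside 12.6% of all named genes, and 27 did not pass the test, with a median of -0.16, and 10 to 14 were lower when 1 array was left out. CCT7 and CCT5, subunits of the chaperonin that folds actin and tubulin, gave differences of -0.41 ± 0.07 and -0.42 ± 0.07 (adjusted p = 8.9e-05 and 0.00012). For CCT7 the signals were 2889, 2773 and 2741 at E14 and 3701, 3957 and 3551 at E7. HSPA4, a heat shock protein, gave 3726, 3719 and 3663 against 5016, 4698 and 4989 (-0.40 ± 0.06, adjusted p = 8.2e-05). The single member that was higher, HSPB9, a small heat shock protein, gave 1457, 2062 and 1422 against 813, 744 and 877 (1.00 ± 0.18, adjusted p = 0.00039). The decreases were small but none of these genes overlapped, which their choice by the lowest p favours.

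Of 59 cytosolic ribosomal proteins tested, none was higher and 11 (18.6%) were lower, beside 12.6% of all named genes, with a median of -0.13. This count moved between 2, without E14 replicate 2, and 17, without E14 replicate 3, and was 3 without E7 replicate 1 or E14 replicate 1, 5 without E7 replicate 2, 6 without E7 replicate 3, 29 after quantile normalization and 55 with arrays set to the same median. RPL23 gave 4572, 3095 and 3916 at E14 and 6990.2, 5877 and 7048 at E7 (-0.80 ± 0.15, adjusted p = 0.00069), and RPS28 gave 6981, 6769 and 7584 against 8418, 8481 and 8720.5 (-0.27 ± 0.06, adjusted p = 0.0034). Of 62 subunits of oxidative phosphorylation, none was higher and 12 (19.4%) were lower, with a median of -0.09 (-0.29, and 0 higher and 34 lower, with arrays set to the same median), and the lower ones were 6 without E14 replicate 2. ATP5B, of the ATP synthase, gave 10483, 10690.2 and 11546 against 13430.2, 13992 and 13028 (-0.31 ± 0.06, adjusted p = 0.0013). COX17 was lower by a difference of -0.52 ± 0.11 (adjusted p = 0.002), NDUFA6 by -0.36 ± 0.09 (adjusted p = 0.0045) and UQCRC2 by -0.28 ± 0.07 (adjusted p = 0.0038).

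Of 54 genes of the cell cycle and DNA replication tested, of 101 in the list, 2 were higher and 9 (16.7%) were lower, near the 12.6% of all named genes, and 6 of the 54 reached the filter level at 1 age only. PCNA, the clamp of DNA polymerase, gave 1770.5, 1791 and 1862 at E14 and 2512, 2399 and 2488 at E7 (-0.45 ± 0.08, adjusted p = 0.00031). DTL gave 92.2, 54.7 and 111 against 281, 261 and 209.9 (-1.59 ± 0.22, adjusted p = 1.6e-05, and -1.26 with low signals raised to 100). STMN1, a microtubule regulator, was lower by a difference of -0.67 ± 0.12 (adjusted p = 0.00025), and SMC4, a condensin subunit, by -1.57 ± 0.28 (adjusted p = 0.00032, and -0.92 with low signals raised to 100). None of the 4 overlapped, which their choice by the lowest p favours.

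**Figure D4:**
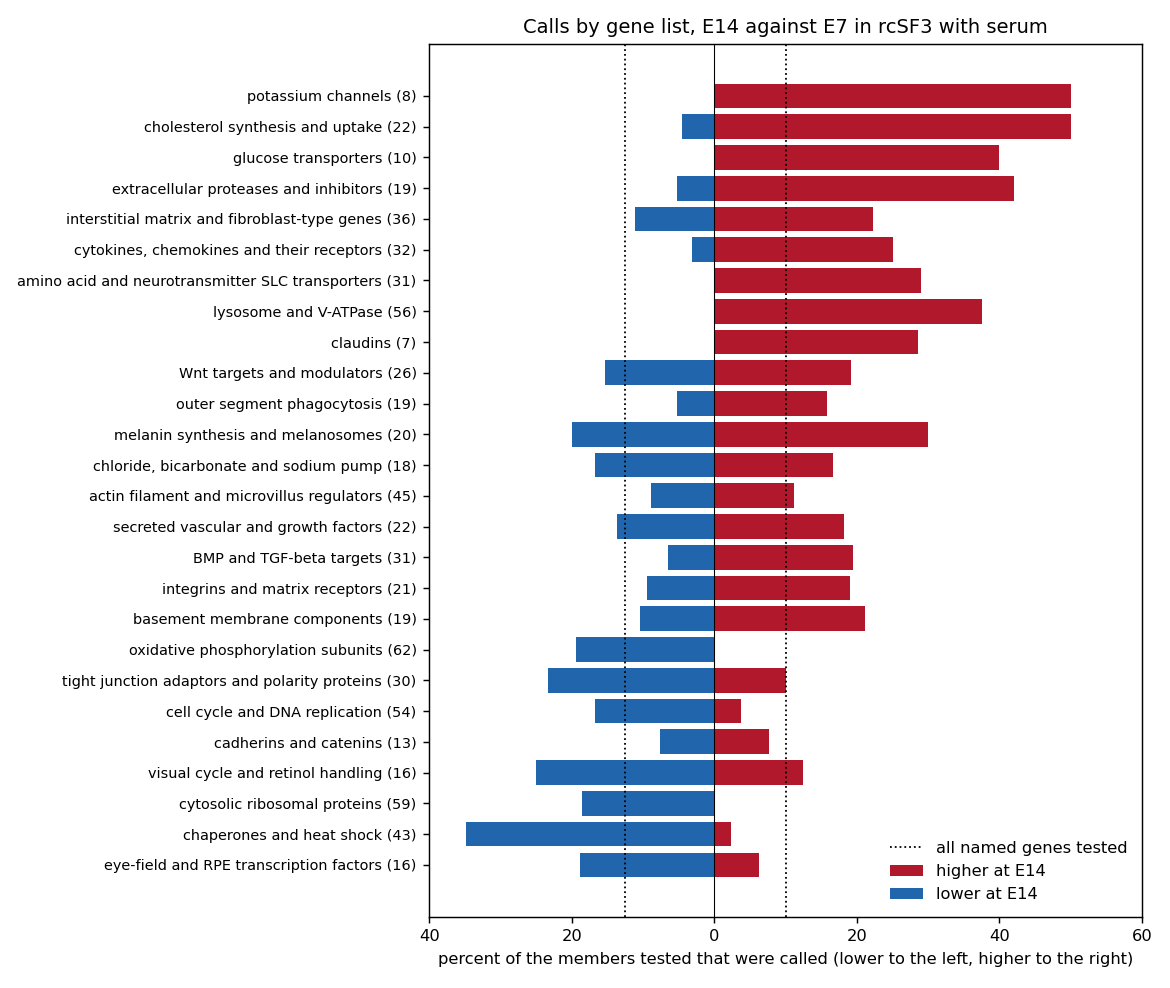
Percent of the tested members of each gene list that were called higher (red, to the right) or lower (blue, to the left) at E14 in rcSF3 with serum, with the number tested in brackets and the lists ordered by median difference. Dotted lines mark the 10.1% higher and the 12.6% lower of all named genes. With arrays set to the same median the lysosomal list has 14 higher and 8 lower in place of 21 and 0. All named genes then have 4.65% higher and 31.7% lower.

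The extracellular matrix differed in its components. Of 36 interstitial matrix and fibroblast-type genes tested, 8 were higher and 4 lower, with a median of 0.23 (0.03, and 4 higher and 6 lower, with arrays set to the same median), and 5 were higher without E7 replicate 1 or 3. LOXL2, which cross-links collagen, gave 6864, 9039.6 and 8990.2 at E14 and 3303, 3376 and 2497 at E7 (1.44 ± 0.17, adjusted p = 3.0e-06). COL3A1 gave 1702, 1045 and 2013 against 849, 745 and 693 (1.01 ± 0.19, adjusted p = 0.00054). Both genes of elastic fibers named here were lower: ELN, elastin, gave 748, 1015 and 1059.6 against 2264, 2169 and 2294 (-1.27 ± 0.16, adjusted p = 6.6e-06). MFAP2, a microfibril protein, gave 2291, 2109.9 and 2849.7 against 5164, 4769 and 4734 (-1.03 ± 0.13, adjusted p = 8.5e-06). The summed signal of the 46 genes of this list with a probe set was 162345 to 192327 at E14 and 154313 to 160716 at E7, so it was higher on all E14 arrays. Of these 46 genes only 12 had means under 100, the fibroblast markers LUM, PDGFRA and TWIST1 among them. A part of contaminating fibroblasts in these differences was not tested.

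Of 19 basement membrane components tested, 4 (21.1%) were higher and 2 (10.5%) lower, beside 10.1% and 12.6% of all named genes. With arrays set to the same median 3 were higher and 8 lower. COL4A4, a chain of type IV collagen, gave 888, 1177 and 868 at E14 and 501, 547 and 394 at E7 (1.02 ± 0.16, adjusted p = 7.6e-05). LAMA5 gave 7664, 6539.8 and 6443 against 4574, 4373 and 4635 (0.60 ± 0.10, adjusted p = 0.00021), and LAMA3 gave 284, 262 and 223 against 74.5, 109 and 99.4 (1.45 ± 0.26, adjusted p = 0.00042). NID1, nidogen, was lower by a difference of -0.61 ± 0.16 (adjusted p = 0.0088). The laminin and collagen chains named were higher on every E14 array.

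Of 21 integrins and matrix receptors tested, 4 were higher and 2 lower (3 and 5 with arrays set to the same median), and 4 of the 21 reached the filter level at 1 age only. ITGA8 gave 288, 276 and 259 at E14 and 88.2, 64.5 and 77.4 at E7 (1.85 ± 0.28, adjusted p = 4.7e-05, and 1.45 with low signals raised to 100). ITGA4 gave 75.1, 60.8 and 183 against 208, 336 and 750.3 (-1.99 ± 0.48, adjusted p = 0.0049, and -1.62 with low signals raised to 100). CD44, the hyaluronan receptor, was higher by 0.64 ± 0.11 (adjusted p = 0.0003), and ITGA6, an integrin chain that binds laminin, by 0.35 ± 0.06 (adjusted p = 0.00017), or 0.15 (adjusted p = 0.23) with arrays set to the same median. ITGAV had a difference of 0.23 (adjusted p = 0.093).

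Of 19 extracellular proteases and their inhibitors tested, 8 were higher and 1 lower, with a median of 0.28 (0.08, and 4 higher and 3 lower, with arrays set to the same median), and 5 were higher without E7 replicate 3 or without E14 replicate 2. Besides MMP7 and CTSK, ADAMTS9, which cleaves proteoglycans, gave 471, 458 and 579 at E14 and 109, 126 and 195 at E7 (1.85 ± 0.25, adjusted p = 1.6e-05). CTSB, cathepsin B, gave 19277, 21454 and 21472 against 16768, 15117 and 14989 (0.41 ± 0.06, adjusted p = 5.1e-05). All 4 were higher on every E14 array.

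Among secreted growth and vascular factors, 4 of 22 tested were higher and 3 lower, with a median of 0.04 (-0.16, and 3 higher and 10 lower, with arrays set to the same median). BDNF, a neurotrophin, gave 736, 577 and 379 at E14 and 246, 173 and 171 at E7 (1.49 ± 0.23, adjusted p = 7.4e-05). IGFBP2, which binds insulin-like growth factors, gave 6148, 5836 and 6620.5 against 4404, 3889 and 3799.9 (0.62 ± 0.10, adjusted p = 0.00015). FGF1 gave 273, 232 and 296 against 536, 797 and 1107 (-1.55 ± 0.23, adjusted p = 4.1e-05), and VEGFD, a growth factor of lymphatic and blood vessels, gave 1578, 1214 and 1783 against 3462, 4813 and 4418 (-1.48 ± 0.18, adjusted p = 4.9e-06). None of these overlapped between the ages, which their choice by the lowest p favours.

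Of 26 Wnt targets and modulators tested, 5 (19.2%) were higher and 4 (15.4%) lower, beside 10.1% and 12.6% of all named genes. With arrays set to the same median 4 were higher and 7 lower. The secreted antagonists SFRP2 and SFRP1, which bind Wnt proteins, moved in opposite directions. SFRP2 gave 15562, 17519 and 17483 at E14 and 3462, 3000.3 and 2642 at E7 (2.48 ± 0.14, adjusted p = 5.0e-11). SFRP1 gave 6553, 7009 and 7686 against 11026, 10699.6 and 10635 (-0.61 ± 0.08, adjusted p = 1.4e-05). WNT9A, a ligand, gave 2753, 3714 and 3324 against 1431, 1091 and 857 (1.56 ± 0.26, adjusted p = 0.00015), and the corepressor TLE4 was higher by 0.63 ± 0.10 (adjusted p = 0.00012). AXIN2, a target induced by Wnt signals, gave 661, 457 and 440.3 against 589, 525 and 629, which overlap (-0.18 ± 0.17, adjusted p = 0.49).

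Of 31 members and targets of the BMP and TGF-beta pathways tested, 6 (19.4%) were higher and 2 (6.45%) lower, beside 10.1% and 12.6% of all named genes. The median was 0.04 (-0.16, and 3 higher and 8 lower, with arrays set to the same median). ID4, a target of BMP, gave 9909, 9396 and 9745 at E14 and 6085, 5539 and 5611 at E7 (0.75 ± 0.14, adjusted p = 0.0005), and TGFB3 was higher by 0.53 ± 0.12 (adjusted p = 0.0029). The ligands BMP2 and BMP7 differed in sign: BMP2 gave 5074, 4302 and 4675 against 6304, 5946 and 6305 (-0.40 ± 0.09, adjusted p = 0.0025), and BMP7 had a difference of 0.54 (adjusted p = 0.01), or 0.34 (adjusted p = 0.094) with arrays set to the same median. Of 22 feedback targets of FGF signals, none was higher and 3 (13.6%) were lower, near the 12.6% of all named genes (0 and 6 with arrays set to the same median). Of 32 cytokines, chemokines and their receptors, 8 (25.0%) were higher and 1 (3.12%) lower, beside the same shares of all named genes. The median was 0.21 (0.01, and 5 higher and 2 lower, with arrays set to the same median). IL1R1, the interleukin 1 receptor, gave 4379, 4102 and 3885 against 2833, 2367 and 2639 (0.66 ± 0.09, adjusted p = 1.4e-05), and TNFRSF11B, a decoy receptor of the TNF family, was higher by 0.89 ± 0.15 (adjusted p = 0.00015). CSF1R was higher by 0.82 ± 0.15 (adjusted p = 0.00043), and LIFR, the receptor of leukemia inhibitory factor, was lower by a difference of -0.48 ± 0.08 (adjusted p = 9.2e-05). HDAC9, a histone deacetylase, gave 529, 436 and 473 against 270.0, 239.5 and 267 (0.89 ± 0.12, adjusted p = 1.8e-05).

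The remaining lists are given by their counts, to be read beside the 10.1% higher and 12.6% lower of all named genes. Counts with arrays set to the same median are to be read beside 4.65% higher and 31.7% lower. Of 24 genes of fatty acid binding and lipid storage, 4 were higher and 2 lower (2 and 4 with arrays set to the same median). Of 40 antioxidant and glutathione genes, 7 were higher and 7 lower (1 and 16 with arrays set to the same median). Of 31 proteasome subunits 1 was higher and 4 were lower (0 and 16 with arrays set to the same median), and of 19 glycolytic enzymes 2 and 3 (0 and 10 with that scaling). Of 26 genes of microtubules, kinesins and dyneins 3 were higher and 1 lower (1 and 4 with that scaling), and of 12 cell cycle inhibitors 1 and 4 (1 and 6). Of 12 Eph receptors and ephrins none was higher and 3 were lower, of 11 interferon response genes 3 and 1 (0 and 1 with arrays set to the same median), of 20 genes of the unfolded protein response and amino acid stress 2 and 2, of 15 histone deacetylases and sirtuins 1 and 1 (1 and 6 with that scaling), of 9 retinoic acid targets 1 and 1 (0 and 5), of 12 Notch genes 1 and 1, and of 5 genes of the LIN28 and let-7 axis none and 1. When any 1 of the 6 arrays was left out, none of the retinoic acid targets was lower and 0 to 2 were higher.

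Markers of other cells that a culture could hold were mostly dim. In bulk RNA, fewer cells of a type and less RNA per cell cannot be told apart. Of 37 photoreceptor markers 27 had a probe set and 12 were tested. Of the 12, 3 reached the filter level at 1 age only, and the median difference was 0.12 (-0.07 with arrays set to the same median). None of the 12 was higher and 3 were lower. These were CNGA3, PRPH2 and PDE6H, with E14 signals of 9.08 to 107 and E7 signals of 44.4 to 330.0, and CNGA3 overlapped between the ages. The PDE6H call (-2.14, adjusted p = 0.037) was lost when any 1 of the 6 arrays was left out (adjusted p = 0.056 to 0.12), that of CNGA3 (-1.79) without E7 replicate 3 (-1.35, adjusted p = 0.071) or E14 replicate 3 (-1.07, adjusted p = 0.078) and with low signals raised to 100 (-0.21, adjusted p = 0.44), and that of PRPH2 (-1.83) without E14 replicate 2 (-1.52, adjusted p = 0.068). RXRG had a difference of -0.61 (adjusted p = 0.074). The summed photoreceptor signal was 8596 to 9872 at E14 and 8842 to 11091 at E7, which overlap, and SAG, GNAT1 and RBP3 had means under 100.

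The summed signal of 30 neuron markers was 14772 to 16564 at E14 and 12141 to 12391 at E7, higher on all E14 arrays. Of 14 tested, 3 were higher and 1 lower. SCG3 and SCG2, secretogranins of secretory granules, gave 2726, 2592 and 2125 against 1172, 1021 and 1137 (1.15 ± 0.13, adjusted p = 1.3e-06) and 1626, 2088 and 1475 against 834, 899 and 837 (1.00 ± 0.14, adjusted p = 2.3e-05). UCHL1, a ubiquitin hydrolase, was higher by 0.90 ± 0.19 (adjusted p = 0.0016), CALB2, calretinin, was lower by a difference of -0.86 ± 0.14 (adjusted p = 0.00013), and MAP2 had one of 0.22 (adjusted p = 0.36). The defining markers NEFL, NEFM, STMN2 and GAP43 had means under 100 on these 6 arrays.

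For glia and retinal progenitors the summed signal was 16867 to 18999.8 at E14 and 19464 to 22403 at E7, and 1 of 7 was higher and 3 were lower. MBP, a protein of myelin, gave 779, 773 and 803 at E14 and 136, 135 and 162 at E7 (2.45 ± 0.27, adjusted p = 8.4e-07), while GFAP had a mean under 100. The lower ones were PAX6, described above, FABP7 (-1.51, adjusted p = 0.033) and AQP4, which was under 100 on 5 of the 6 arrays (-1.78, and -0.10 with low signals raised to 100). The FABP7 call was lost without any 1 array except E7 replicate 1 (adjusted p = 0.052 to 0.15), and that of AQP4 without E7 replicate 2 (-1.68, adjusted p = 0.062), E7 replicate 3 (-1.47, adjusted p = 0.094) or E14 replicate 3 (-0.94, adjusted p = 0.14).

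Markers of the ciliary epithelium and iris, which border the RPE, summed to 12146 to 13369 at E14 and 17477 to 19601 at E7, lower on all E14 arrays, and 1 of 8 was called. OPTC, opticin, gave 1638, 1655 and 1793 against 6958, 6952 and 7628 (-2.08 ± 0.14, adjusted p = 2.4e-10). Most of the fall of the sum was that of OPTC alone, so the sum does not speak for the other markers. ZIC1, COL9A3 and BMP4 of this list had differences of -1.31, 0.40 and -0.35 and did not pass the test. ZIC1 passed as lower with quantile normalization (-1.54, adjusted p = 0.047) or arrays set to the same median (-1.51, adjusted p = 0.033). BMP4 passed as lower with arrays set to the same median (-0.55, adjusted p = 0.029) or only the arrays compared (adjusted p = 0.029). COL9A3 passed as higher with quantile normalization, only the arrays compared, a replicate block or without E7 replicate 3 (adjusted p = 0.042 to 0.047). Of melanocyte and neural crest, endothelium, blood, muscle and lens markers, 3, 6, 8, 4 and 7 were tested, and 1, 1, 2, 1 and 0 were higher and 0, 0, 1, 0 and 1 lower. Of 15 endothelium markers with a probe set 9 had means under 100, CDH5 and VWF among them. The summed endothelium signal was 4058 to 4913 at E14 and 3354 to 3729 at E7, higher on all E14 arrays. The median difference of the 6 endothelium markers tested was -0.02, so this sum does not speak for the set. Of 17 blood markers with a probe set 9 had means under 100, PTPRC among them. The summed blood signal was 7688 to 9903 at E14 and 9666 to 10178 at E7, which overlap. The median difference of the 8 blood markers tested was 0.57 (0.37 with arrays set to the same median), so this sum does not speak for the set either. The part of other cells in the differences between ages was not tested.

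The same age comparison was made in each of the other 3 media, on other arrays, to ask where the ages differ when both stimuli are present and not otherwise. In SF3 35.8% of the probe sets differed between the ages, with serum alone 28.9% and with rcSF3 alone 23.5%, against 18.8% with both stimuli. With arrays set to the same median the share with both stimuli was 30.1%. The shares in the other media were not computed with that scaling, so the order of the media may depend on it. Of the 3670 probe sets called with both stimuli, 82.9% had the same sign in SF3, 91.7% in SF3 with serum and 92.3% in rcSF3, where 66.5%, 71.0% and 72.2% of all probe sets tested did. The differences correlated with those in the other media with r = 0.52, 0.64 and 0.66 over the 19519 probe sets. Probe sets are no independent replicates. In all 4 media 1274 of the 3670 (34.7%) were called in the same direction, 679 higher and 595 lower.

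The age difference itself differed from that in SF3 for 2330 probe sets (11.9%), from that in SF3 with serum for 309 (1.58%) and from that in rcSF3 for 153 (0.784%). Of the 2330, the difference was smaller with both stimuli for 75.8%, and for 1391 it had the opposite sign. The share with a smaller difference was not counted over all probe sets tested. Over all of them the age differences had an SD of 0.61 in SF3 and 0.46 with both stimuli, and 66.5% had the same sign. The opposite signs include differences that did not pass the test: 179 probe sets were called in both media with opposite signs. The counts against SF3 with serum and rcSF3 moved with single arrays. Without replicate 1 of E7 with both stimuli they were 74 and 56, and without replicate 2 of E14 with both stimuli 180 and 55. The count against SF3 with serum was 160 without replicate 2 of E7 and 180 without replicate 3 of E14 with both stimuli, 191 and 132 without replicates 1 and 3 of E7 in SF3 with serum, and 182 and 102 without replicates 2 and 3 of E14 in that medium. The count against rcSF3 was 98 without replicate 3 of E7 and 101 without replicate 1 of E14 in rcSF3. Over all fits that left out 1 array the counts lay between 74 and 444 and between 55 and 154. Against SF3 the count lay between 1708 and 2237.

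Several of the largest differences between media were of genes that were highest in E7 cultures in SF3. CXCR4, a chemokine receptor, had a mean signal of 898 ± 234 (SD, n = 3) in E7 cultures in SF3 and of 32.8 to 39.1 in the E14 groups. With both stimuli it was under 100 on all 6 arrays, and its age difference there exceeded that in SF3 by 5.20 ± 0.80 (adjusted p = 0.00011). The call held with low signals raised to 100, but the size of this value is not firm, as most signals behind it lay under 100. MDK, the growth factor midkine, had a mean of 2104 ± 453 in E7 cultures in SF3 and 289 ± 115 in E7 cultures with both stimuli, against 108 ± 27.1 and 133 ± 41.0 at E14 (a difference of 3.20 ± 0.49 between the media, adjusted p = 0.00011). Its own age difference with both stimuli was -1.10 (adjusted p = 0.029). That call was lost without E7 replicate 2 (-1.13, adjusted p = 0.062), E7 replicate 3 (-0.80, adjusted p = 0.16), E14 replicate 1 (-0.93, adjusted p = 0.11) or E14 replicate 2 (-1.03, adjusted p = 0.093). IL13RA2, a receptor of interleukin 13, had 7517 ± 1388 and 3858 ± 595 in E7 cultures in SF3 and in SF3 with serum, and 326 ± 41.5 in E7 cultures with both stimuli, against 465 ± 74.9 at E14. Its age difference with both stimuli did not pass the test (0.51, adjusted p = 0.11), and it differed from that in SF3 by 3.52 ± 0.31 and from that in SF3 with serum by 2.91 ± 0.31 (adjusted p = 1.4e-07 and 2.1e-05). HESX1, a homeobox factor, had a mean of 693 ± 48.3 in E7 cultures in SF3 and means under 100 in the other 7 groups.

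For RPE65 and some transporters the E7 cultures were lowest in SF3. RPE65 had a mean of 11035 ± 2490.1 in E7 cultures in SF3 and of 20546 ± 1807 in E7 cultures with both stimuli, against 28192 ± 1429.8 and 23907 ± 3070.3 at E14. The age difference of RPE65 was 1.37 in SF3, 0.65 with serum alone, 0.31 with rcSF3 alone and 0.21 with both stimuli, and the last differed from the first by -1.16 ± 0.16 (adjusted p = 2.7e-05). SLC38A11, an amino acid transporter, had 69.2 ± 14.7 in E7 and 423 ± 85.9 in E14 cultures in SF3, and 453 ± 102 in E7 and 237 ± 22.0 in E14 cultures with both stimuli, so that the sign of the age difference turned (-0.92, adjusted p = 0.0095, against 2.61 in SF3). Without E7 replicate 1 the difference of -0.92 was -0.74 (adjusted p = 0.063). SLC18A2, the vesicular monoamine transporter, was 48.0 ± 30.8 in E7 cultures in SF3 and 586 ± 47.7 with both stimuli, where the ages overlapped (-0.11, adjusted p = 0.86). FAM135B had an age difference of 2.48 in SF3 and of -0.98 with both stimuli (adjusted p = 0.027, but 0.15 without E7 replicate 1, 0.083 without E14 replicate 1 and 0.066 without E14 replicate 3).

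Only 12 probe sets called with both stimuli also differed from each of the other 3 media. RDH11 and PEX5L were 2 of them. RDH11 had an age difference of 0.64 in SF3, -0.66 with serum alone, -0.25 with rcSF3 alone and -1.64 with both stimuli. Its mean signal was 10817 ± 679 in E7 cultures with both stimuli, above the 1367 ± 90.7 in SF3, the 2503 ± 377 in rcSF3 and the 8449.9 ± 1454 in SF3 with serum, while at E14 its highest mean was in SF3 with serum (5328). The age differences of RDH11 with both stimuli differed from those in the 3 media by -2.28, -0.97 and -1.39 (adjusted p = 1.1e-07, 0.014 and 0.00092). PEX5L had 0.40, -1.25, -0.63 and -2.42, and differed from the 3 media by -2.83, -1.17 and -1.79 (adjusted p = 2.4e-07, 0.026 and 0.00092). Its E7 mean was highest and its E14 mean lowest with both stimuli (821 and 154). CKMT1B, a mitochondrial creatine kinase, was high in both media with serum: its age difference was -1.03 ± 0.20 with both stimuli (adjusted p = 0.00081) and 2.00 in rcSF3, and its mean signal in rcSF3 was 399.8 ± 88.3 at E14 and 101 ± 27.2 at E7, against 2141 ± 611 and 4283 ± 459 with both stimuli. GRTP1 was 523 ± 99.4 at E14 and 1416 ± 12.2 at E7 with both stimuli (-1.46, adjusted p = 3.5e-05) and had an age difference of 0.18 in rcSF3.

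**Figure D5:**
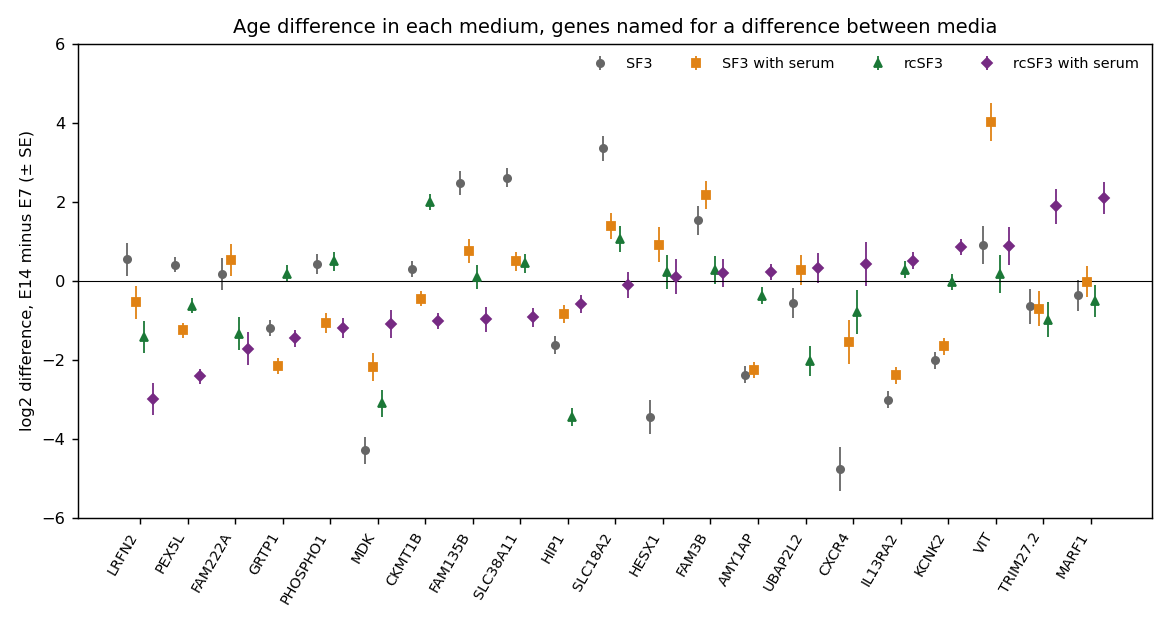
Log2 difference, E14 minus E7, with its SE in each of the 4 media for the 21 genes named for a difference between media; each point rests on 3 arrays an age. PEX5L falls from 0.40 in SF3 to -2.42 in rcSF3 with serum, and CXCR4, IL13RA2 and MDK are far below 0 in SF3 and nearer to 0 in rcSF3 with serum.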

How the data were processed

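RNA of 24 cultures was read on 1-colour Affymetrix chicken genome arrays, in 8 groups of 3. The values used are linear intensity values that the authors made with the scanner software, scaled so that the trimmed mean (without the extreme 2% at each end) is equal on all arrays, and deposited in 1 table. Its version and background correction were not given in the sources used here. Scaling by a mean leaves the array medians free to differ.

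The 96 controls were left out, and the intensities were taken to log2 with no further scaling. Of 38439 probe sets, 27168 had 1 gene symbol, 177 several and 11094 none in the platform annotation, and 19519 passed the filter (mean signal of at least 100 over the arrays of either age), of which 856 passed at E14 only and 704 at E7 only. A gene is given by its passing probe set with the highest mean log2 signal. The 8 group means were fitted with limma 3.58.1 (R 4.3.3) with a mean-variance trend, and p-values were adjusted over all probe sets tested. The steps were tested on simulated data. Figures were drawn with matplotlib 3.10.9.

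Named genes are the 12 largest increases and decreases past the threshold with arrays that do not overlap and 1 symbol, the 4 largest differences each way against each other medium, 2 to 4 members with the lowest p of the lists described, and genes that the study names. Members and lists were chosen with earlier results of these data known. MITF and OTX2 were named as markers, outside this rule. The p-values rest on the spread between 3 biologic repeats a group, pooled over all 8 groups and moderated across probe sets. With only the arrays compared, some calls were lost, among them ALDH1A3, KCNK2, AQP4 and CNGA3 (limma, adjusted p = 0.097, 0.13, 0.12 and 0.11). Alternatives were other filters, quantile and median scaling, a pseudocount of 16, raising low signals to 100, no moderation (the analysis of variance of the methods), no trend, only the arrays compared, replicate number as a block, and leaving out each array.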

Additional observations from a re-analysis of the deposited data

Results flagged for a closer look

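The age difference with both stimuli differed, by the test of that difference (limma, adjusted p), from that in another medium for the named genes below. Values are the age difference (E14 minus E7, log2) with both stimuli minus that in the other medium. The genes below are only a part of the named genes that passed. Others include AMY1AP (2.59), CA14 (-2.10), BDNF (1.75) and HSPA4 (0.81) against SF3. HDAC9 (0.97) and FAM135B (-1.74) also passed against SF3 with serum, and CA14 (-1.61) against rcSF3. RDH11, described above, differed from all 3 media. Each value rests on 3 arrays a group, and no explanation was tested.

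Against SF3, the value was positive for CXCR4 (5.20), HESX1 (3.55), IL13RA2 (3.52), MDK (3.20), C6orf58 (2.03, adjusted p = 0.00032), C10H15ORF48 (1.38, adjusted p = 0.035), HDAC9 (1.25, adjusted p = 3.6e-05), CRB2 (1.24, adjusted p = 0.0064), COL3A1 (0.84, adjusted p = 0.041) and BEST1 (0.51, adjusted p = 0.036). It was negative for SLC38A11 (-3.53), LRFN2 (-3.53), SLC18A2 (-3.47), FAM135B (-3.46), PEX5L (-2.83) and COL24A1 (-2.23, adjusted p = 0.0018). Among genes of junctions, adhesion and signals it was negative for CDH13 (-1.42, adjusted p = 0.0094), AXIN2 (-1.32, adjusted p = 0.00068), CDH4 (-0.89, adjusted p = 0.00025), PRKCD (-0.87, adjusted p = 0.0049), MAP2 (-0.68, adjusted p = 0.045), CLDN5 (-0.59, adjusted p = 0.047), TJP1 (-0.59, adjusted p = 0.023) and ACTR3 (-0.38, adjusted p = 0.034). Among genes of transport and the visual cycle it was negative for RPE65 (-1.16), KCNJ15 (-1.06, adjusted p = 0.041), SLC2A12 (-1.0, adjusted p = 0.0011) and SLC16A12 (-0.54, adjusted p = 0.00056). LRFN2 is dim, and its value was -0.51 and no longer past the threshold with signals under 100 raised to 100.

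Against SF3 with serum, the value was positive for IL13RA2 (2.91), TRIM27.2 (2.59, adjusted p = 0.033), KCNK2 (2.51, adjusted p = 0.0001) and AMY1AP (2.47, adjusted p = 0.00011), and negative for VIT (-3.14, adjusted p = 0.022), LRFN2 (-2.44, adjusted p = 0.032), FAM222A (-2.25, adjusted p = 0.047), FAM3B (-1.98, adjusted p = 0.0499) and PEX5L (-1.17). Of the 12 fits that left out 1 array, the call was lost in 12 for FAM3B, 9 for FAM222A, 8 for TRIM27.2, 7 for LRFN2 and 5 for VIT, and in 0 for IL13RA2, KCNK2 and AMY1AP. With signals under 100 raised to 100, VIT had 0.41 (adjusted p = 0.58) and TRIM27.2 had 0.93 (adjusted p = 0.21).

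Against rcSF3, the value was positive for TRIM27.2 (2.88, adjusted p = 0.025), HIP1 (2.88, adjusted p = 6.7e-05), MARF1 (2.62, adjusted p = 0.028) and UBAP2L2 (2.35, adjusted p = 0.039), and negative for CKMT1B (-3.03, adjusted p = 2.5e-06), PEX5L (-1.79), PHOSPHO1 (-1.68, adjusted p = 0.021) and GRTP1 (-1.64, adjusted p = 0.0086). The call was lost in 9 of 12 such fits for UBAP2L2, 6 for MARF1, 5 for TRIM27.2 and 4 for PHOSPHO1, and in 0 for CKMT1B, HIP1 and GRTP1. With signals under 100 raised to 100 none of the 4 positive values listed here passed the test: HIP1 had 0.97 (adjusted p = 0.11), TRIM27.2 had 1.30 (adjusted p = 0.097), MARF1 had 0.59 (adjusted p = 0.37) and UBAP2L2 had 0.27 (adjusted p = 0.77).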

How the results depend on the processing

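The count of 3670 probe sets that differed between the ages lay within 1.5 times of itself under all alternatives but median centring (5879, of which 799 were higher and 5080 lower) and was 2555 to 3273 when 1 array was left out. Against SF3 the 2330 were 1708 to 2237 without 1 array, and median centring gave 3448 (359 positive and 3089 negative). Against SF3 with serum the 309 were 177 without the filter, 171 without moderation, 171 without the trend, 1013 (77 positive and 936 negative) with median centring and 74 to 444 without 1 array. Against rcSF3 the 153 were 94 without the filter, 51 without moderation, 57 without the trend and 55 to 154 without 1 array, with 24 positive and 97 negative under median centring. Replicate numbers showed no pairing between the E7 and E14 arrays with both stimuli: deviations of same-numbered arrays correlated with r = -0.02, 0.08 and 0.05. Same-numbered arrays of 1 age in different media were not compared, so pairing across media was not examined. With the number as a replicate block the counts were 3793, 2450, 342 and 182.

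Of 167 called values of named genes, 120 kept their direction and their call under each alternative, and of 2941 values over all alternatives 206 lost the call and 2 reversed, both against SF3 with serum with low signals raised to 100 (VIT 0.41, LRFN2 0.00). The other 22 reversals were of age differences that had not passed the test. Of 702 values of such differences over all alternatives, 32 gained the call. Median centring reversed CDH11 (-0.03), CLDN12 (-0.04), FAM3B (-0.01), FMN1 (-0.13), HESX1 (-0.10), RAB38 (-0.04), SLC2A1 (-0.18), SLC2A12 (-0.09), SLC2A8 (-0.16) and YES1 (-0.12), quantile normalization HESX1 (-0.14) and raising low signals UBAP2L2 (-0.03). Leaving out 1 array also turned the sign in some fits, which ranged from -0.16 to 0.47 for CDH11, -0.28 to 0.06 for CRB2, -0.25 to 0.49 for HESX1, -0.04 to 0.29 for RAB38, -0.39 to 0.17 for SLC18A2, -0.03 to 0.07 for SLC2A1, -0.18 to 0.60 for UBAP2L2 and -0.04 to 0.16 for YES1. The causes were not tested. Signals under 100 leave the size of a difference uncertain.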
